A study of Mus musculus with 4 samples.

Results

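The 6 genes described here are the Nr4a orphan nuclear receptors Nr4a1, Nr4a2 and Nr4a3 and the zinc finger factors Egr1, Egr2 and Egr3. They were picked by symbol, 6 of the 31053 genes in the deposited tables, and their raw UMI counts (unique molecular identifiers, 1 per captured RNA molecule) were followed through every cell class. The study read single cells of mouse liver with 10x Genomics 5′ chemistry, in 4 libraries, 1 for each pairing of a Mef2d genotype label (KO or WT) with a stage label (premalignant liver or eHCC tissue). The tissue was minced and digested into single cells with an enzyme kit before capture, for all 4 libraries alike. Strain, age, sex, the agent that gave rise to the tumours, the cells in which Mef2d was deleted, the exons removed and the number of animals behind each library are not stated in the labels read here.

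All 6 genes are immediate-early genes: a stimulus makes them switch on from existing transcription factors, without new protein synthesis. Antigen receptor signalling in T and B cells is one such stimulus, acting through calcium, calcineurin, NFAT and MEF2 factors on the Nr4a genes and through ERK and SRF on the Egr genes, while growth factors, cyclic AMP, stretch and the digestion of tissue can act in cells of any type. In T cells the Nr4a receptors are known to limit effector function and to be held high in exhausted cells, Egr2 and Egr3 are known from anergy, and Nr4a1 is required for non-classical monocytes in mice.

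The promoters of the Nr4a genes are printed because all 3 carried the same short element several times, and that of Egr2 because it carried another one. The promoter table, from RefSeq on GRCm38.p6, matched 4 of the 6 members, and Egr1 and Egr3 were not among them. The 250 bases before the start lie at chr15:101266596-101266845 on the plus strand for Nr4a1, chr2:57124004-57124253 on the minus strand for Nr4a2, chr4:48045055-48045304 on the plus strand for Nr4a3 and chr10:67537619-67537868 on the plus strand for one of the starts of Egr2. Capitals mark matches to the motifs searched on both strands, which are CGTCA or its reverse complement TGACG (the half-site of the cyclic AMP response element), the CArG box bound by SRF, and the MEF2 site.
Nr4a1: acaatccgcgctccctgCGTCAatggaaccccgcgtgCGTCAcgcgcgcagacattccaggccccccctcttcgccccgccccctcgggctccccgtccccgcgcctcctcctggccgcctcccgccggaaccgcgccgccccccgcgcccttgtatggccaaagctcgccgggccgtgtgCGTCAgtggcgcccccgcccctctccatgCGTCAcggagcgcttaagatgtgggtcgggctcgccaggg
Nr4a2: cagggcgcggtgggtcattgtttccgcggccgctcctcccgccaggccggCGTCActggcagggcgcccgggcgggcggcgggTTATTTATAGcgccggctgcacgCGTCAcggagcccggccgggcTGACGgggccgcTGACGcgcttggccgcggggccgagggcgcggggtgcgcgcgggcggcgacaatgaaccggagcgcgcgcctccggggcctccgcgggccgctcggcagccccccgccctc
Nr4a3: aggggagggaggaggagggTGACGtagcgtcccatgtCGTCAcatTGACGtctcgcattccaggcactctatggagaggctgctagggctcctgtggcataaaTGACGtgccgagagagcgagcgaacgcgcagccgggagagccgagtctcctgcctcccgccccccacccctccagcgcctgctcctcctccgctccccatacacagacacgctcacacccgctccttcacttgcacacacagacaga
Egr2: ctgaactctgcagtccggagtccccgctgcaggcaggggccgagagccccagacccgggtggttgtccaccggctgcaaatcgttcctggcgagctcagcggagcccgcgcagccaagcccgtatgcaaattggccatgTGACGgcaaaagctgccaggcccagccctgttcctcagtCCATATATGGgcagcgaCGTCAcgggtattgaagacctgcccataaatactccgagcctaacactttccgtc
CGTCA, on either strand, occurred 4 times in each Nr4a promoter and 2 times in the Egr2 promoter. Of 32843 other promoters of the same length, 17.8% held at least 1 such match, 3.89% at least 2 and 0.128% (42 promoters) at least 4. The Egr2 promoter held 1 CArG box, found in 1.46% of the other promoters, and the Nr4a2 promoter held 1 MEF2 site, found in 2.92%. The table holds 5 starts of Egr2, of which 3, the printed one among them, had 2 CGTCA matches and a CArG box, 1 had a CArG box alone and 1 had none of these. The 4 windows were 61.6% to 80% G or C, and none held the full element TGACGTCA, whose half-sites are the ones counted and which 1.55% of the other promoters held. None held the EGR site GCGTGGGCG (0.536% of the others), the NR4A site AAAGGTCA (1.34%) or the AP-1 site (4.46%). A match describes the letters in the window and nothing about binding.

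The 4 libraries held 9672 to 14167 barcodes and 56458438 to 118594527 UMIs, and 8382 to 12229 cells per library were kept, with medians of 4305.5 to 8316 UMIs per cell. Between 94 and 118 barcodes per library, at most 1.06%, also occurred in another library. Doublets were removed at 1 rate for all libraries, 6.48% to 10.8% of the cells. Mef2d itself was measured at 101 CPM (UMIs of the gene per 1000000 UMIs) in the KO-labelled and 72.2 CPM in the WT-labelled premalignant library, and at 96.4 CPM in the KO-labelled and 61.3 CPM in the WT-labelled eHCC library. These values go against the label, although RNA from outside a deleted part would not check it, so groups are called KO-labelled and WT-labelled throughout. With 1 library per group no difference was tested between groups: brackets after a CPM or a ratio are 95% intervals that cover counting error only, a ratio is a log2 ratio of CPM, and "past 1.5-fold" is used of genes with at least 20 UMIs in both libraries together. Classes are named X-like from marker genes, and comparisons needed at least 100 cells of a class in both libraries. A higher CPM in a class does not by itself say whether more of its cells are switched on or each holds more RNA. Shares of cells with a UMI are given for some classes below.

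Nr4a1 was found in every class, and its levels ran from 16.7 CPM in WT-labelled sinusoidal endothelial-like (LSEC-like) cells of premalignant liver to 914 CPM [866 to 965] in KO-labelled phagocyte-like cells of the same stage. Phagocyte-like cells had 698 CPM in the WT-labelled premalignant library, 454 CPM in the KO-labelled eHCC library and 379 CPM in the WT-labelled eHCC library. Within this class it was highest in a cluster led by Ace and Cd300e, genes of non-classical monocytes, at 1547 CPM over 194 cells. Neutrophil-like cells had 849 CPM in the WT-labelled eHCC library and mast or basophil-like cells 743 CPM in the KO-labelled eHCC library, the only libraries with at least 100 such cells. Conventional dendritic-like cells, at 295 to 369 CPM, and NK-like cells, at 286 to 365 CPM, came next, and B-like cells had 172 to 342 CPM and T-like cells 121 to 267 CPM. Plasmacytoid dendritic-like cells had 119 CPM in the KO-labelled and 59.0 CPM in the WT-labelled premalignant library. Kupffer-like cells of the WT-labelled premalignant library had 43.5 CPM [37.0 to 50.9]. Neighbours in this order overlapped in their intervals from the highest conventional dendritic-like to the lowest NK-like level, a range that took in the B-like cells of the KO-labelled premalignant and WT-labelled eHCC libraries. B-like cells of the WT-labelled premalignant library, at 172 CPM [164 to 181], lay below it.

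The highest levels of Nr4a2 were in NK-like and T-like cells, and its levels elsewhere overlapped with the lower of these. Nr4a2 reached 711 CPM in NK-like and 677 CPM in T-like cells, both of the KO-labelled eHCC library, was at 203 CPM in T-like and 207 CPM in NK-like cells of the WT-labelled premalignant library, and at 283 CPM in phagocyte-like and 262 CPM in conventional dendritic-like cells of the KO-labelled eHCC library. Its lowest level was 4.27 CPM in B-like cells of the WT-labelled premalignant library. Nr4a3 reached 399 CPM in NK-like cells of the KO-labelled eHCC library and 375 CPM in mast or basophil-like, 296 CPM in T-like and 276 CPM in conventional dendritic-like cells of the same library, against 1 UMI (0.279 CPM) in Kupffer-like cells and 1.34 CPM in LSEC-like cells of the WT-labelled premalignant library. B-like cells, which have an antigen receptor, had Nr4a1 at 172 to 342 CPM while Nr4a2 was at 4.27 to 17.9 CPM and Nr4a3 at 4.47 to 31.6 CPM. NK-like cells, a type without a rearranged antigen receptor, had Nr4a2 at 207 to 711 CPM. All 7 T cell markers were found in the NK-like class, with sums of 1587 CPM in the KO-labelled and 1411 CPM in the WT-labelled premalignant library and 912 CPM in the KO-labelled and 622 CPM in the WT-labelled eHCC library, where B-like cells had 38.9 to 71.8 CPM. The part of T cells or their RNA in the NK-like values was not tested.

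The Egr genes had other orders of classes, although mast or basophil-like and neutrophil-like cells were high for Egr1 as they were for Nr4a1. Egr1 was highest in mast or basophil-like cells of the KO-labelled eHCC library, at 1160 CPM, then in neutrophil-like cells of the WT-labelled eHCC library, at 802 CPM, and then in LSEC-like cells of the WT-labelled premalignant library, at 254 CPM [249 to 259]. A cluster of 122 cells led by the basophil genes Mcpt8 and Prss34 had 2457 CPM, the highest of the 49 clusters. Egr3 was a gene of B-like cells, at 165 CPM in the KO-labelled premalignant, 111 CPM in the WT-labelled premalignant and 145 CPM in the WT-labelled eHCC library, and outside B-like cells it was at most 35.4 CPM except in mast or basophil-like (138 CPM), neutrophil-like (66.2 CPM) and WT-labelled premalignant NK-like cells (54.9 CPM). Egr2 was at 60.0 CPM in neutrophil-like cells and at most 18.3 CPM in any other class and library. T-like cells had Egr2 at 6.73 to 10.6 CPM and Egr3 at 8.41 to 14.5 CPM, so that comparisons of both in T-like cells rest on few UMIs.

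**Figure D1:**
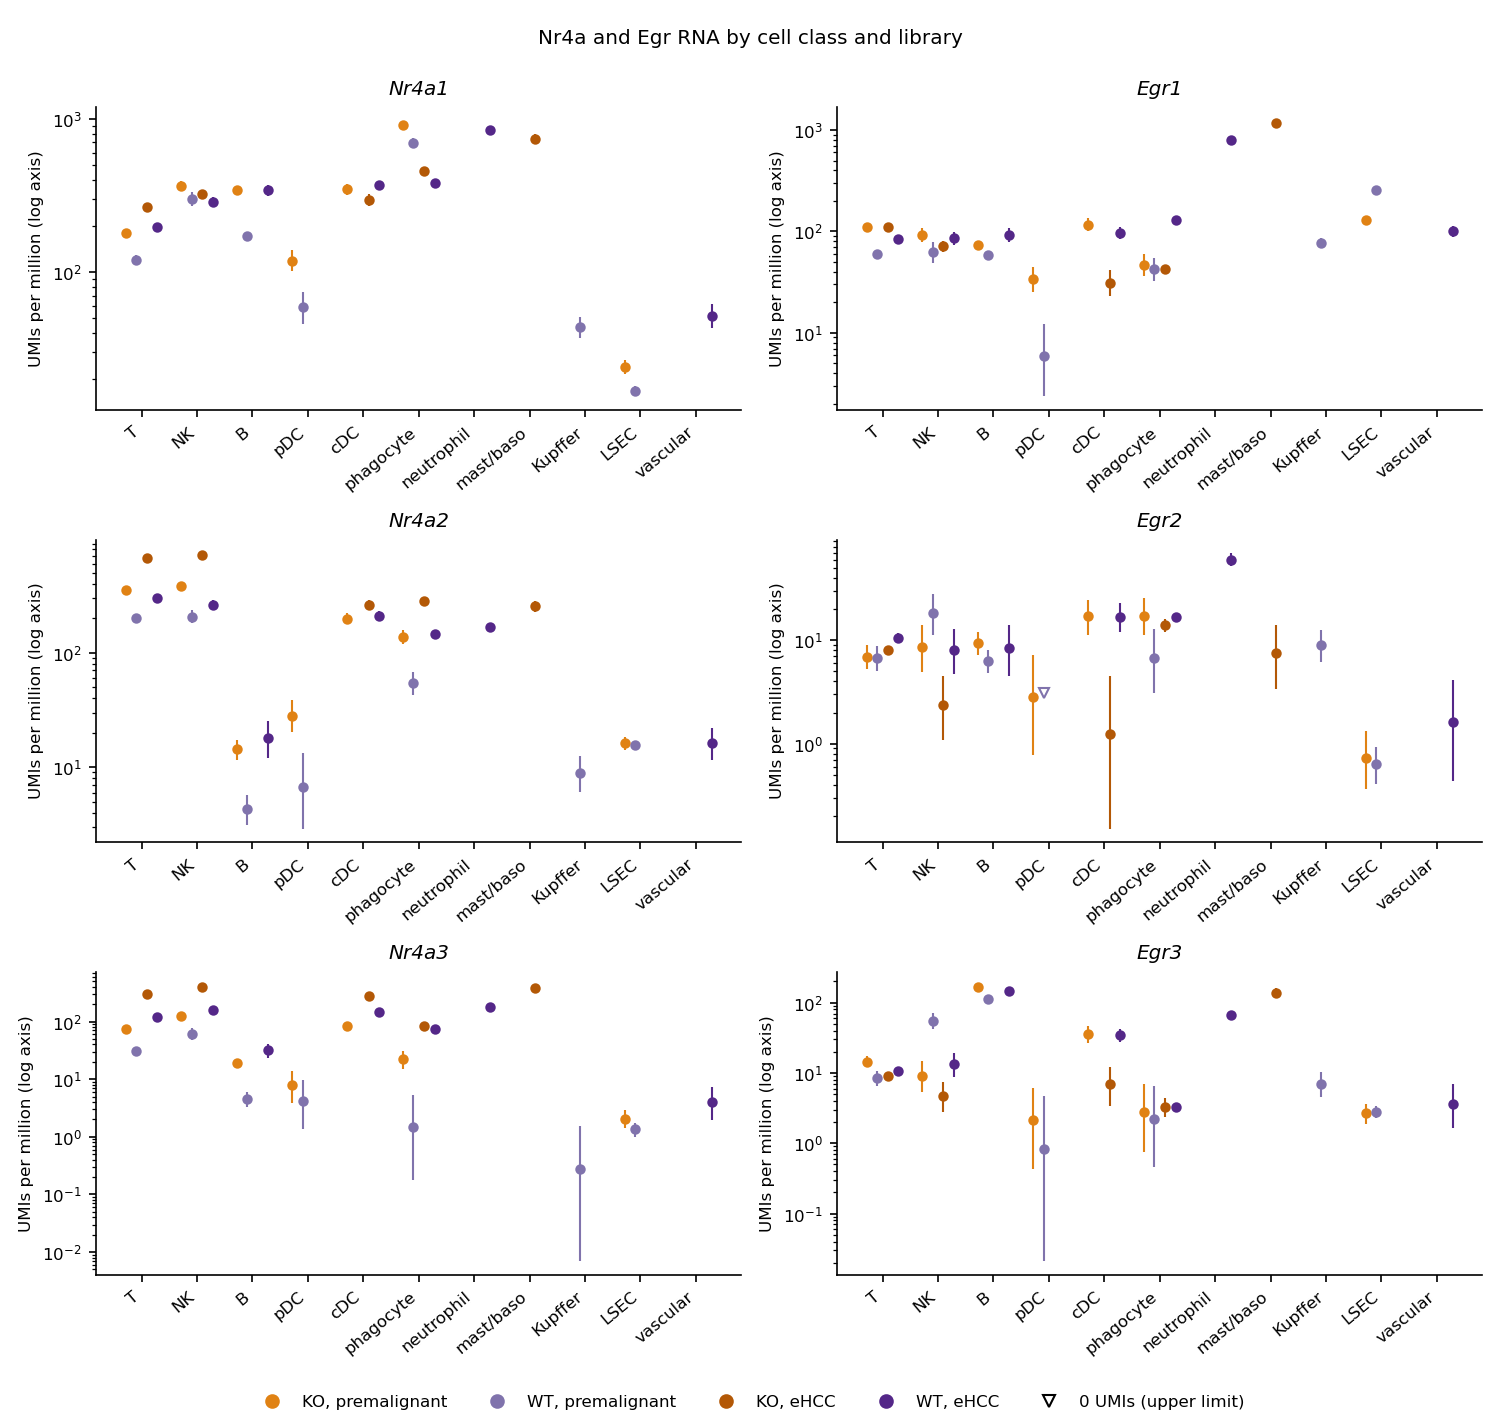
Level of each member (CPM, log axis) in each cell class with at least 100 cells, 1 point per library, with KO-labelled left of WT-labelled libraries at each stage and bars for the 95% Poisson interval. An open triangle is the upper limit where no UMI was seen. Nr4a2 is at 203 to 711 CPM in T-like and NK-like cells and at 4.27 to 17.9 CPM in B-like cells, where Egr3 is at 111 to 165 CPM.

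The share of cells with a UMI was read after each cell was thinned to 1000 UMIs. In the KO-labelled premalignant library 22.6% of T-like cells had Nr4a2 RNA, against 1.31% of B-like cells and 1.29% of LSEC-like cells, classes with medians of 3802 and 4949.5 UMIs before thinning where T-like cells had 4753.5. In the KO-labelled eHCC library the share was 42.9% of T-like and 7.59% of erythroid-like cells, which should lack the gene, and the medians were 6983.5 and 9772 UMIs. Nr4a3 was found in 25.1% of those T-like and 2.90% of those erythroid-like cells. The unthinned shares of Nr4a3 were 72.5% and 21.7%. T cell markers summed to 753 CPM in these erythroid-like cells and to 128 CPM in phagocyte-like cells of the same library. Free RNA in the droplets gives UMIs to cells that do not express a gene, and whether the erythroid-like share came from free RNA or from T cells caught with them was not tested.

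Nr4a2 had the highest ratio of the 6 members between T-like cells with checkpoint RNA and those with naive-cell RNA, in each of the 4 libraries. T-like cells with at least 2 UMIs of checkpoint genes (Pdcd1, Lag3, Havcr2, Tox, Tigit and Entpd1, found on exhausted cells) were set against those with at least 2 UMIs of naive-cell genes (Ccr7, Lef1, Tcf7, S1pr1 and Il7r) and none of the checkpoint genes, each cell thinned to 1000 UMIs. In the KO-labelled premalignant library Nr4a2 stood at 1606 CPM in 109 checkpoint cells and 70.9 CPM in 494 naive cells, a log2 ratio of 4.502 [3.97 to 5.07]. In the WT-labelled premalignant library it stood at 971 CPM in 68 checkpoint cells and 45.3 CPM in 552 naive cells, a log2 ratio of 4.42 [3.74 to 5.15]. The eHCC libraries had the same direction, with higher levels in the cells picked as naive. There it was 1298 CPM in 634 checkpoint cells against 347 CPM in 524 naive cells of the KO-labelled library (1.90 [1.67 to 2.14]). The WT-labelled eHCC library had 944 CPM in 302 checkpoint cells and 180 CPM in 410 naive cells (2.39 [2.01 to 2.78]). Whether the cells picked as naive were of the same types at both stages was not tested. In a smaller T-like group led by Ccr7 and Igfbp4, 67 KO-labelled and 38 WT-labelled eHCC cells, Nr4a2 was at 58.4 CPM unthinned. In a group of 660 cells led by Gzmm, 652 of them KO-labelled eHCC cells, it was at 253 CPM unthinned.

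Its relatives did not follow to that extent. The log2 ratio of checkpoint over naive cells for Nr4a3 was 0.94 in the KO-labelled and 2.21 in the WT-labelled premalignant library, 0.10 in the KO-labelled and 0.84 in the WT-labelled eHCC library, and only the last of these intervals, 0.29 to 1.40, lay above 0. Nr4a1 was lower in checkpoint than in naive cells of the KO-labelled eHCC library, at 207 CPM against 332 CPM (-0.68 [-1.02 to -0.35]), and its other 3 intervals held 0, as did all 4 of Egr1. Egr3 had 3 UMIs in checkpoint and 12 UMIs in naive cells of the KO-labelled eHCC library (-2.27 [-4.74 to -0.39]). The T cell receptor response list, 19 genes that rise on antigen receptor signalling, was higher in checkpoint cells of every library, by 1.03, 1.56, 0.50 and 0.51 in the order KO-labelled premalignant, WT-labelled premalignant, KO-labelled eHCC and WT-labelled eHCC. The handling list, 22 immediate-early genes known to rise on tissue dissociation, differed between these cells by 0.25, 0.29, -0.28 and 0.047 in the same order. The premalignant checkpoint cells with the largest Nr4a2 ratios were within 1.5-fold of naive cells in handling RNA. Their handling intervals, 0.16 to 0.33 in the KO-labelled and 0.18 to 0.40 in the WT-labelled library, lay above 0. Heat shock genes differed between checkpoint and naive cells by 0.43, 0.45, -0.30 and -0.0078 in the same order. The part of handling in the Nr4a2 ratios was not tested.

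**Figure D2:**
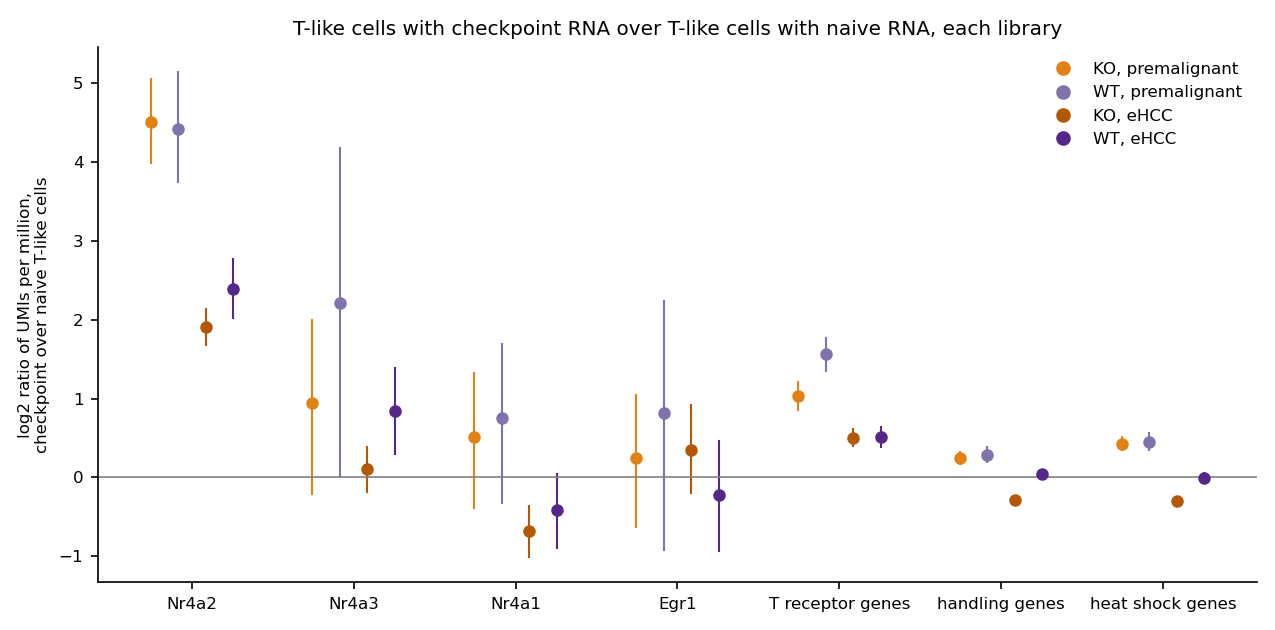
Log2 ratio of CPM in checkpoint over naive T-like cells, thinned to 1000 UMIs per cell, for members and gene lists in each library, with 95% intervals. Nr4a2 lies between 1.90 and 4.502 in the 4 libraries, above every other feature plotted for the same library, and the handling list between -0.28 and 0.29.

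T-like cells were clustered again into smaller groups. The highest Nr4a2 level of these was in a group of 186 cells led by Gm26917 and Neat1, at 1452 CPM, with Egr1 at 470 CPM and Egr3 at 84.6 CPM. These cells had a median of 1063.5 UMIs, the lowest of the groups, and the highest handling sum, 17066 CPM. Nr4a2 was at 1326 CPM in a group of 754 cells led by Gzma, Lag3, Pdcd1 and Havcr2, and at 47.5 CPM in a group of 843 cells led by Igfbp4, Dapl1 and Lef1, a naive-cell factor. Of the 754 cells 745 were from the KO-labelled eHCC library, while the naive group held 363 KO-labelled and 479 WT-labelled premalignant cells. A group of 163 cells, all from the KO-labelled eHCC library and led by Gzmb, Ccl4 and Ifng, had 930 CPM of Nr4a1, 1286 CPM of Nr4a2 and 900 CPM of Nr4a3. A group of 398 cells led by Il2, Cd40lg and Spry1, 387 of them from the WT-labelled eHCC library, had Egr1 at 205 CPM and Egr2 at 26.9 CPM, with Nr4a2 at 181 CPM.

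The first comparison between labels was in premalignant liver, where 4 of the 6 members, Nr4a2, Nr4a3, Egr1 and Egr3, were past 1.5-fold higher in KO-labelled T-like cells. Nr4a2 had 354 CPM in KO-labelled and 203 CPM in WT-labelled T-like cells (log2 ratio 0.80 [0.72 to 0.89]). Nr4a3 had 73.7 CPM against 30.8 CPM in WT-labelled cells (1.26 [1.05 to 1.48]), and Egr1 109.6 CPM against 59.2 CPM (0.89 [0.73 to 1.05]). Egr3 had 14.5 CPM against 8.41 CPM in WT-labelled cells (0.78 [0.35 to 1.23]), Nr4a1 179 CPM against 121 CPM (0.57 [0.45 to 0.68]), and Egr2 6.95 CPM against 6.73 CPM (0.05 [-0.50 to 0.60]). None of the 6 was past 1.5-fold lower, and 13.5% of all genes measured in these cells were higher and 4.95% lower. The clusters differed in their share of the class: that led by Cd8a, Gzmk and Tox made up 33.3% of KO-labelled and 26.5% of WT-labelled T-like cells, and the naive one led by Dapl1 and Lef1 27.1% and 35.1%. Within the first of these clusters Nr4a2 had 936 CPM in KO-labelled and 665 CPM in WT-labelled cells (0.49), and Nr4a3 104 CPM against 52.0 CPM (1.00). Within the naive cluster the ratios were 0.88 for Nr4a2, 1.43 for Nr4a3 and 1.27 for Egr1. With separate clustering of the libraries the ratio of Nr4a2 in T-like cells was -1.04, because a KO-labelled cluster of 654 cells led by Gzmk, Cd8a and Pdcd1 did not get the T name there. Under the 11 alternative settings Egr1 was past 1.5-fold in 10, with 0.46 as the lowest ratio, and Egr3 in 8, at 0.19 to 0.79.

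B-like cells had a larger difference in the Nr4a genes than in the Egr genes. Nr4a1 stood at 341 CPM in KO-labelled and 172 CPM in WT-labelled B-like cells (0.99 [0.90 to 1.08]). Nr4a2 had 97 UMIs in KO-labelled and 44 UMIs in WT-labelled cells (1.74 [1.21 to 2.29]), and Nr4a3 128 and 46 UMIs (2.08 [1.58 to 2.59]). The ratio of Egr3, the abundant Egr gene of B cells, was 0.56 [0.44 to 0.68], and those of Egr1 and Egr2 were 0.34 and 0.58. The 3 Nr4a genes were the members past 1.5-fold, all higher, where 14.0% of genes measured in B-like cells were higher and 7.48% lower.

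In NK-like cells Nr4a2 and Nr4a3 were past 1.5-fold higher and Egr2 and Egr3 past 1.5-fold lower. Nr4a2 had 386 CPM in KO-labelled and 207 CPM in WT-labelled NK-like cells (0.90 [0.69 to 1.12]) and Nr4a3 126.8 CPM against 61.0 CPM (1.05 [0.66 to 1.46]). Nr4a1 had 365 CPM against 301 CPM (0.28 [0.09 to 0.47]) and Egr1 92.4 CPM against 62.8 CPM (0.56 [0.15 to 0.98]), both with higher values in KO-labelled cells but not past 1.5-fold. Egr3 was lower, with 17 UMIs in 388 KO-labelled cells and 63 UMIs in 226 WT-labelled cells (-2.59 [-3.45 to -1.80]), and Egr2 had 16 against 21 UMIs (-1.09 [-2.13 to -0.08]). That is 2 members higher and 2 lower, where 13.8% of genes measured in NK-like cells were higher and 8.47% lower. Egr2 was past 1.5-fold in 9 of 11 alternative settings, at -1.22 to -0.48.

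Phagocyte-like cells had Nr4a2 at 139 CPM in the KO-labelled and 54.4 CPM in the WT-labelled library (1.35 [0.96 to 1.76]). Nr4a3 had 32 UMIs in 175 KO-labelled cells and 2 UMIs in 171 WT-labelled cells (3.89 [1.92 to 6.99]), 7 of the 32 from 1 cell. Egr2 had 25 and 9 UMIs (1.36 [0.21 to 2.65]), and Nr4a1 914 CPM against 698 CPM (0.39 [0.27 to 0.51]). Egr1 had 46.9 CPM against 42.5 CPM (0.14 [-0.39 to 0.68]), and Egr3 had 4 and 3 UMIs. Cells of a cluster led by Plac8 made up 68.0% of KO-labelled and 53.2% of WT-labelled phagocyte-like cells, and the Ace cluster 21.7% and 36.3%. Of 5 members with enough UMIs 3 were higher and 0 lower, where 8.55% of genes were higher and 9.18% lower. Egr2 was past 1.5-fold in 9 of 10 alternative settings, with 0.55 as the lowest ratio. LSEC markers summed to 331 CPM in KO-labelled and 724 CPM in WT-labelled phagocyte-like cells. When phagocyte-like cells were clustered again, a group led by Clec4g, an LSEC marker, and Aqp1 held 97 KO-labelled and 88 WT-labelled premalignant cells. The part of LSEC RNA in these values was not tested.

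Plasmacytoid dendritic-like cells, 143 KO-labelled and 132 WT-labelled, had Nr4a1 at 119 CPM against 59.0 CPM in WT-labelled cells (1.01 [0.60 to 1.43]), Nr4a2 at 40 against 8 UMIs (2.07 [0.95 to 3.37]) and Egr1 at 48 against 7 UMIs (2.52 [1.37 to 3.91]). The last 2 ratios turned negative with doublets kept, at -0.023 for Nr4a2 and -1.22 for Egr1, and that of Nr4a1 was past 1.5-fold in 8 of 11 alternative settings. Nr4a3 had 11 and 5 UMIs, Egr2 4 and 0 and Egr3 3 and 1 UMIs, KO-labelled cells first. Erythroid markers, with 4 of 5 found in both libraries and Slc4a1 at 0, summed to 31.8 CPM in KO-labelled and 4846 CPM in WT-labelled cells, and their part in these values was not tested.

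LSEC-like cells were the class where Egr1 was lower in the KO-labelled library. Egr1 stood at 130 CPM [125 to 136] in 2790 KO-labelled cells and 254 CPM [249 to 259] in 5194 WT-labelled cells (-0.96 [-1.03 to -0.89]). Nr4a1 was at 24.0 CPM against 16.7 CPM in WT-labelled cells (0.52 [0.33 to 0.71]), Nr4a2 at 16.1 CPM against 15.6 CPM (0.05 [-0.17 to 0.27]), and Nr4a3 at 31 against 51 UMIs (0.62 [-0.07 to 1.30]). Egr2 had 11 against 24 UMIs (0.22 [-0.96 to 1.30]) and Egr3 40 against 106 UMIs (-0.06 [-0.63 to 0.47]). So 1 member was past 1.5-fold higher and 1 lower, where 5.93% of genes were higher and 4.86% lower. The higher one, Nr4a3, was past 1.5-fold in 7 of 11 alternative settings, at 0.54 to 1.75. In the cluster led by Wnt2 and Kit, genes of sinusoidal endothelium near the central vein, Egr1 had 128 CPM in KO-labelled and 176 CPM in WT-labelled cells (-0.46). In the cluster led by Ntn4, Efnb1 and Dll4 it had 157 CPM in KO-labelled and 356 CPM in WT-labelled cells (-1.19), and this cluster made up 23.8% of KO-labelled and 37.0% of WT-labelled LSEC-like cells. A cluster led by Gm26870 and Aass, with a median of only 1547 UMIs, made up 21.7% of KO-labelled and 14.0% of WT-labelled ones. The part of this shallow cluster in the Egr1 ratio was not tested. Phagocyte markers summed to 3513 CPM in KO-labelled and 5259 CPM in WT-labelled LSEC-like cells, and their part in these values was not tested.

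**Figure D3:**
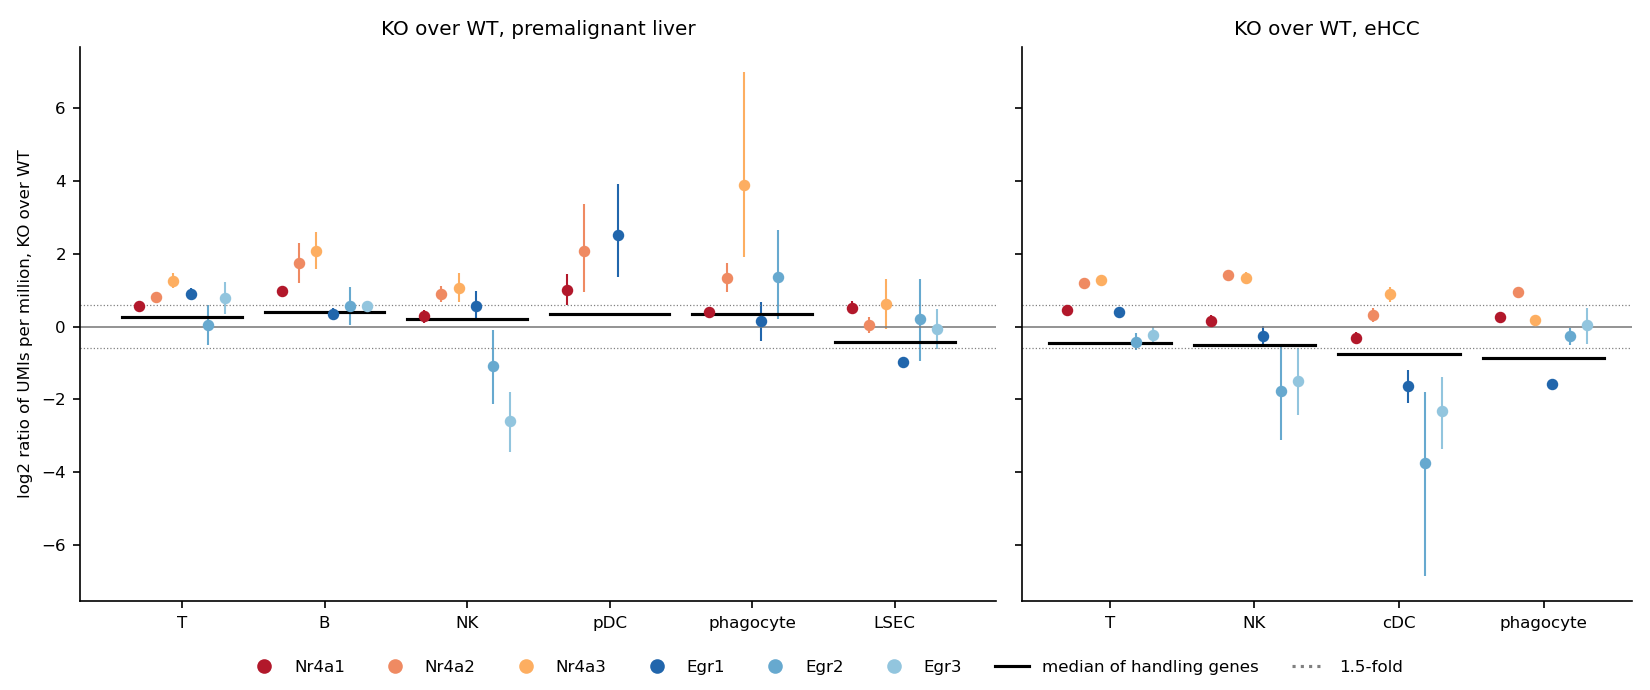
Log2 ratio of KO-labelled over WT-labelled CPM for each member with at least 20 UMIs, by class, in premalignant liver and eHCC, with 95% intervals. The black line is the median of the handling list, and dotted lines mark 1.5-fold. In LSEC-like cells Egr1 lies with the handling median below 0, and in eHCC T-like and NK-like cells Nr4a2 and Nr4a3 lie above 1 where that median is near -0.5.

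The handling list holds genes known to be induced by digestion of tissue, and its values were set beside those of the members. Its median log2 ratio in premalignant liver was 0.27 in T-like cells (19 of 22 genes above 0) and 0.40 in B-like cells (20 of 22). It was 0.20 in NK-like cells (16 of 21), 0.34 in phagocyte-like cells (18 of 20) and 0.34 in plasmacytoid dendritic-like cells (17 of 20). The medians of all measured genes in these classes lay between -0.01 and 0.12. In LSEC-like cells the handling median was -0.44, with 3 of 22 genes above 0 and 9 past 1.5-fold lower, among them Fos at 252 CPM in KO-labelled and 474 CPM in WT-labelled cells (-0.91) and Jun at 483 against 760 CPM (-0.65). The handling list and Egr1 were both higher in the lymphoid classes and both lower in LSEC-like cells of the KO-labelled library than in the WT-labelled library. Its part in the members' values was not tested.

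The T cell receptor response genes of T-like cells did not stand apart from all genes by their median. The T cell receptor response list had a median of 0.10 in premalignant T-like cells, with 12 of 19 genes above 0, where all genes had 0.12. In B-like cells the B cell receptor response list had a median of 0.33, with 14 of 18 genes above 0 and 5 past 1.5-fold higher. Of all genes measured in B-like cells 14.0% were past 1.5-fold higher and 7.48% lower. Among the 5 were Kdm6b (251 CPM in KO-labelled and 140 CPM in WT-labelled cells, 0.84), Irf4 (193 against 113 CPM, 0.78) and Rel (531 against 320 CPM, 0.73). In NK-like cells the T cell receptor response list had a median of 0.43, with 12 of 15 genes above 0. Heat shock genes had medians of 0.34 in T-like and 0.54 in B-like cells. Per 1000 UMIs of handling genes, T-like cells had 57.7 Nr4a UMIs in the KO-labelled and 38.5 in the WT-labelled library, and B-like cells 25.5 and 16.3.

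In eHCC the Nr4a genes and the handling genes parted. T-like cells of the KO-labelled library had Nr4a2 at 677 CPM against 298 CPM in the WT-labelled library (1.18 [1.15 to 1.22]) and Nr4a3 at 296 CPM against 121 CPM (1.29 [1.24 to 1.35]). Nr4a1 had 267 CPM against 196 CPM in WT-labelled cells (0.45 [0.40 to 0.49]) and Egr1 110 CPM against 84.2 CPM (0.39 [0.32 to 0.46]). Egr2 was at 7.97 CPM against 10.6 CPM (-0.41 [-0.64 to -0.18]) and Egr3 at 9.02 CPM against 10.6 CPM (-0.23 [-0.45 to -0.01]). With 2 members higher and 0 lower, the background was 9.22% of genes higher and 19.7% lower. The handling list had a median of -0.46 in the same cells, with 16 of 22 genes below 0. Among its genes, Fos was at 152 CPM in KO-labelled and 718 CPM in WT-labelled cells (-2.24) and Jun at 145 against 472 CPM (-1.70). Per 1000 handling UMIs these T-like cells had 163 Nr4a UMIs in the KO-labelled and 59.5 in the WT-labelled library.

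NK-like cells of eHCC had the same 4 members past 1.5-fold in the same directions, Egr2 and Egr3 on 9 to 28 UMIs a library. Nr4a2 was at 711 CPM in KO-labelled and 264 CPM in WT-labelled NK-like cells (1.43 [1.30 to 1.57]) and Nr4a3 at 399 against 158 CPM (1.34 [1.16 to 1.51]), while Egr2 had 9 against 17 UMIs (-1.77) and Egr3 18 against 28 UMIs (-1.49). Nr4a1 had 321 CPM in KO-labelled and 286 CPM in WT-labelled NK-like cells (0.16 [0.02 to 0.31]) and Egr1 71.4 CPM against 85.6 CPM (-0.26 [-0.54 to 0.02]). These 2 higher and 2 lower members stand beside 9.33% of genes higher and 20.3% lower. The handling median was -0.51, and Fos had 131 CPM in KO-labelled and 1167 CPM in WT-labelled NK-like cells (-3.16). Per 1000 handling UMIs they had 158 Nr4a UMIs in the KO-labelled and 49.7 in the WT-labelled library. These ratios of the summed Nr4a genes to handling RNA were close to those of T-like cells, at 163 and 59.5. Erythroid markers summed to 2574 CPM in KO-labelled and 155 CPM in WT-labelled NK-like cells, and their part in the result was not tested.

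The T-like and NK-like cells of eHCC also differed in composition and in stray RNA. A cluster led by Klra4, Klra8 and Gzma made up 66.0% of KO-labelled and 45.0% of WT-labelled NK-like cells. The part of this difference in the NK-like ratios was not tested. The T-like class was 47.0% a cluster led by Pdcd1 and Gzmk and 23.3% one led by Gzmm in the KO-labelled library, and 37.7% the Cd8a, Gzmk and Tox cluster and 24.8% a cluster led by Bcl2 in the WT-labelled library. In T-like clusters with at least 100 cells in both libraries the direction was the same as over all T-like cells. Nr4a2 and Nr4a3 had ratios of 1.02 and 1.25 in the cluster led by Tnfrsf4 and Foxp3 (457 KO-labelled and 717 WT-labelled cells). They had 1.13 and 1.15 in one led by Ifit genes, and 0.70 and 0.69 in a cycling one. Erythroid markers summed to 2272 CPM in KO-labelled and 228 CPM in WT-labelled T-like cells, and phagocyte markers to 186 CPM in KO-labelled and 1608 CPM in WT-labelled ones. Their part in the result was not tested. Nr4a2 in erythroid-like cells of the KO-labelled eHCC library was at 102.6 CPM, below its level in T-like cells of either eHCC library.

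All 3 Egr genes were past 1.5-fold lower in KO-labelled than in WT-labelled dendritic-like cells of eHCC, while in phagocyte-like cells only Egr1 of the 3 was. In dendritic-like cells Egr1 had 31.3 CPM in KO-labelled and 96.8 CPM in WT-labelled cells (-1.63 [-2.10 to -1.18]), Egr2 2 against 39 UMIs (-3.76 [-6.85 to -1.81]) and Egr3 11 against 79 UMIs (-2.32 [-3.38 to -1.40]). Nr4a3 was at 276 CPM against 149 CPM in WT-labelled cells (0.89 [0.68 to 1.10]), Nr4a2 at 262 CPM against 211 CPM (0.31 [0.12 to 0.50]) and Nr4a1 at 295 CPM against 369 CPM (-0.33 [-0.49 to -0.16]). This made 1 member higher and 3 lower, where 9.13% of genes were higher and 16.8% lower, and the handling median was -0.74 with 18 of 21 genes below 0. In phagocyte-like cells Nr4a2 had 283 CPM in KO-labelled and 147 CPM in WT-labelled cells (0.95 [0.89 to 1.01]) and Egr1 43.0 CPM against 129.6 CPM (-1.59 [-1.72 to -1.47]), 1 member higher and 1 lower, where 15.3% of genes were higher and 22.1% lower. The other members of phagocyte-like cells had ratios of 0.26 for Nr4a1, 0.18 for Nr4a3, -0.27 for Egr2 and 0.03 for Egr3. Erythroid markers summed to 4258 CPM in KO-labelled and 110 CPM in WT-labelled phagocyte-like cells, and to 1207 CPM in KO-labelled and 88.5 CPM in WT-labelled dendritic-like cells. Their part in these values was not tested.

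The phagocyte comparison spans different cells: 69.0% of KO-labelled ones were in the Plac8 cluster, and 48.0% of WT-labelled ones in a cluster led by Fcrls and Tmem119 with 39.8% in one led by Chil3, Gpnmb and Spp1. Within the Plac8 cluster Nr4a1 was at 472 CPM in KO-labelled and 886 CPM in WT-labelled cells (-0.91), Nr4a2 at 343 against 133 CPM (1.37) and Egr1 at 17.7 against 61.2 CPM (-1.79). Within a macrophage cluster led by Mmp12 and Ccl8 Nr4a1 had a ratio of 0.75, Nr4a2 of 1.55, Nr4a3 of 2.28 and Egr1 of 0.25. Nr4a3 had a ratio of 0.61 in the Plac8 cluster, so that Nr4a2 and Nr4a3 were higher in KO-labelled cells of both clusters, as in T-like and NK-like cells.

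**Figure D4:**
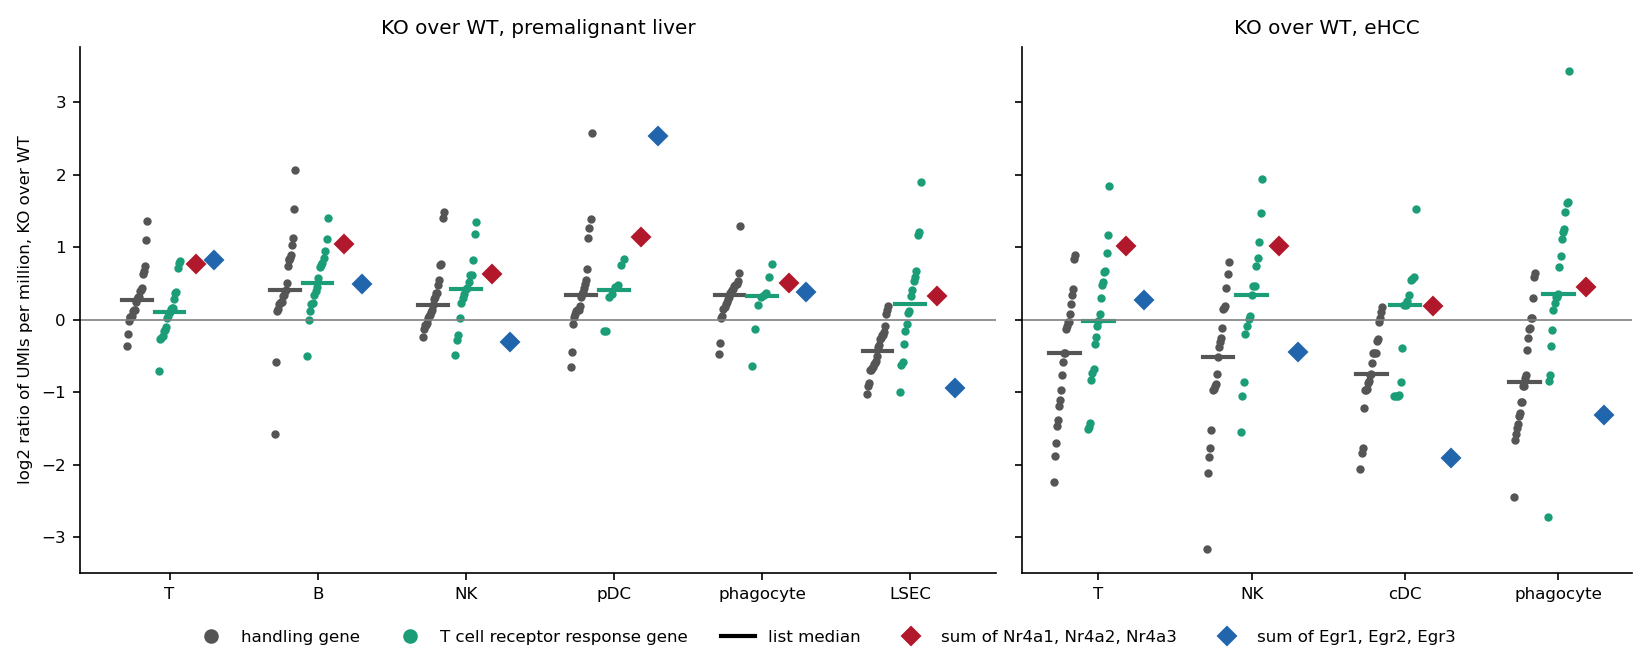
Log2 ratio of KO-labelled over WT-labelled CPM for each gene of the handling list and of the T cell receptor response list, by class and stage, with list medians as lines and the summed Nr4a and Egr genes as diamonds. In eHCC the Nr4a diamond lies above both list medians in T-like and NK-like cells, and in premalignant LSEC-like cells the Egr diamond lies with the lower handling genes.

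T-like cells were then sorted by their handling UMIs, after thinning to 1000 UMIs, so that cells with less unequal handling RNA could be compared. Cells with 10 or more handling UMIs had more of the members than cells with 0 to 2. The log2 ratio was 2.11 for Nr4a1, 0.73 for Nr4a2, 1.68 for Nr4a3 and 2.04 for Egr1 in the KO-labelled eHCC library, and 2.26, 1.82, 2.68 and 2.21 in the WT-labelled eHCC library. Each of the 4 genes was thus higher in cells with more handling RNA, Nr4a2 by the smallest ratio in both libraries. Between labels, Nr4a2 and Nr4a3 were past 1.5-fold at each level of handling RNA in eHCC. In cells with 0 to 2 handling UMIs, 422 KO-labelled and 197 WT-labelled, Nr4a2 had 566 CPM in KO-labelled and 132 CPM in WT-labelled cells (2.10 [1.51 to 2.75]) and Nr4a3 71 against 6 UMIs (2.47 [1.27 to 3.96]). In cells with 3 to 9 handling UMIs the ratios were 1.38 and 1.79, and in cells with 10 or more they were 1.02 and 1.46. Within a group the libraries still differed in handling RNA: cells with 10 or more had a mean of 15.02 handling UMIs in the KO-labelled and 17.7 in the WT-labelled eHCC library, and 16.2 and 16.6 in the premalignant ones. In premalignant T-like cells with 10 or more handling UMIs Nr4a1 had 247 CPM in KO-labelled and 241 CPM in WT-labelled cells (0.03 [-0.27 to 0.33]), Nr4a2 474 against 387 CPM (0.29 [0.07 to 0.52]), Nr4a3 104 against 43.0 CPM (1.28 [0.66 to 1.93]) and Egr1 194 against 120 CPM (0.69 [0.30 to 1.09]). Over all premalignant T-like cells, thinned in the same way, the ratios were 0.28 for Nr4a1, 0.61 for Nr4a2, 1.40 for Nr4a3 and 1.00 for Egr1.

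**Figure D5:**
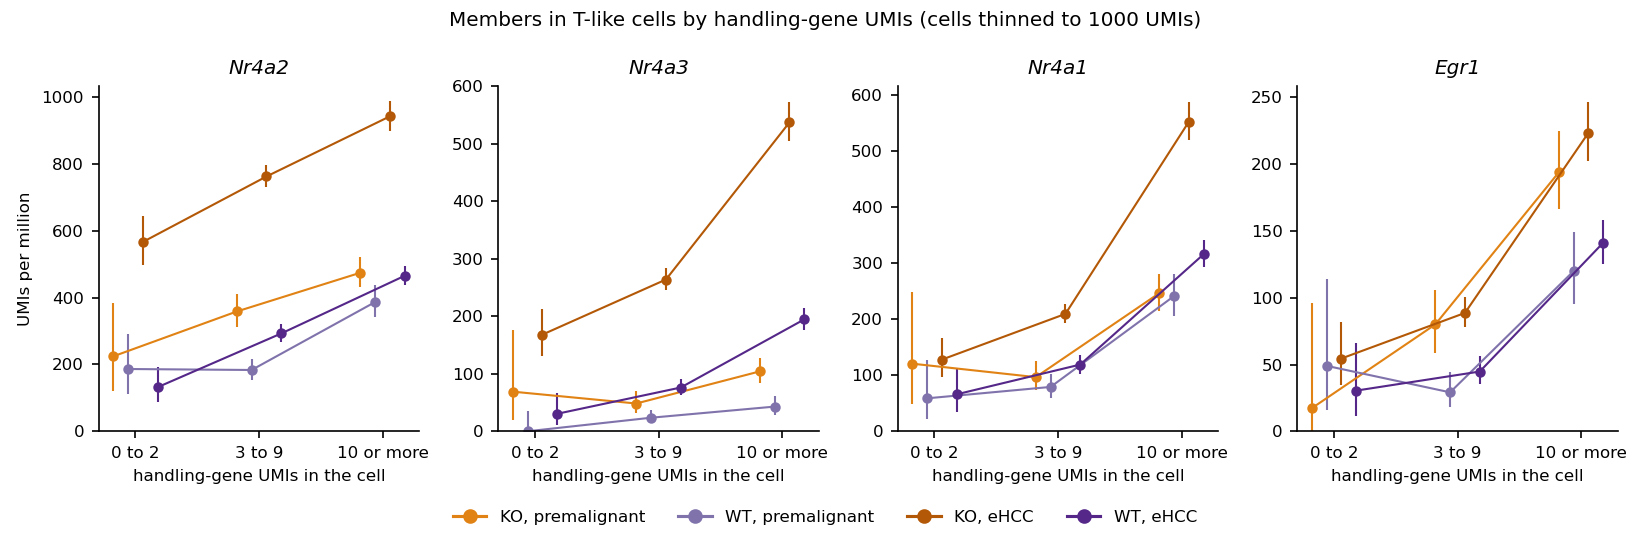
CPM of Nr4a2, Nr4a3, Nr4a1 and Egr1 in T-like cells thinned to 1000 UMIs and grouped by their handling-gene UMIs (0 to 2, 3 to 9, 10 or more), 1 line per library, with 95% Poisson bars. In eHCC the KO-labelled values of Nr4a2 and Nr4a3 lie above the WT-labelled ones in all 3 groups.

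Antigen receptor genes were read in the same way. Among T-like cells with 10 or more handling UMIs, those with at least 1 UMI of the T cell receptor response list had more Nr4a RNA, summed over the 3 genes, than those with none. The log2 ratios were 0.63 [0.30 to 0.97] in the KO-labelled and 1.70 [1.16 to 2.30] in the WT-labelled premalignant library, and 0.53 [0.37 to 0.69] in the KO-labelled and 0.96 [0.73 to 1.20] in the WT-labelled eHCC library. The Egr sum had 0.70, 1.26, 0.73 and 0.36 in the same order, and the interval of the last, -0.11 to 0.86, held 0. Cells with a UMI of this list were not an even mix of T cell subsets. At any handling level, 84.4% of checkpoint and 68.0% of naive cells had one in the KO-labelled premalignant library, and 82.4% and 61.8% in the WT-labelled one. In eHCC the shares were 84.7% and 71.8% with the KO label and 86.1% and 79.3% with the WT label. The part of the subsets in these ratios was not tested. In premalignant B-like cells Nr4a1 had 355 CPM in KO-labelled cells with a B cell receptor response UMI and 136 CPM in those without (1.39 [0.40 to 2.61]), and in the WT-labelled library 195 and 74.3 CPM (1.39 [0.65 to 2.24]). Within 1 library, Nr4a RNA was thus higher both in cells with more handling RNA and in cells with receptor response RNA among those with 10 or more handling UMIs.

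The upstream factors and partners of the members, 18 genes, included Crem, the one with the largest ratio in eHCC. In premalignant T-like cells 16 of 17 measured ones were above 0, with a median of 0.41. Of all genes measured in those cells 13.5% were past 1.5-fold higher and 4.95% lower. The calcineurin target Nfatc3 had 188 CPM in KO-labelled and 115 CPM in WT-labelled cells (0.71), the class IIa deacetylase Hdac7, which holds MEF2 factors inactive, 123 against 76.5 CPM (0.68), and Mef2d itself 105 against 72.6 CPM (0.53). In eHCC T-like cells the median was -0.10 and 8 of 17 were above 0. There Crem, a cyclic AMP response factor, had 229 CPM in KO-labelled and 54.2 CPM in WT-labelled T-like cells (2.08 [2.001 to 2.16]). Crem had 335 CPM against 51.4 CPM in WT-labelled NK-like cells (2.70), 109 against 22.5 CPM in phagocyte-like cells (2.27) and 121 against 26.5 CPM in dendritic-like cells (2.19). In premalignant T-like cells it had 34.1 against 25.7 CPM (0.41). Of the 12 anergy genes linked to Egr2 and Egr3, 10 were above 0 in eHCC T-like cells. Cdkn1a had 121 CPM in KO-labelled and 36.2 CPM in WT-labelled cells (1.74). Tob1 had 78.2 against 37.8 CPM (1.05) and Cblb 173 against 97.5 CPM (0.82). Of all genes measured in these cells 9.22% were past 1.5-fold higher and 19.7% lower. Egr2 and Egr3 themselves had negative ratios, and their part in the values of the anergy genes was not tested. Within the T cell receptor response list, whose eHCC median was -0.01, Tnfrsf9 was at 79.2 CPM in KO-labelled and 22.2 CPM in WT-labelled cells (1.84), and Il2, Spry1 and Myc had ratios of -1.51, -1.48 and -1.43.

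The stages were compared within each label, with the same libraries as above. All measured genes had median log2 ratios of eHCC over premalignant between -0.45 and -0.13 in the classes compared, and the values below are to be read against these. Nr4a3 was past 1.5-fold higher in eHCC in every class compared, and Nr4a2 had positive ratios in all of them, past 1.5-fold in 5 of 8. The Nr4a2 ratio turned negative thinned (-0.17) and with cells weighted equally (-0.16) in KO-labelled dendritic-like cells, and with separate clustering (-0.31) in WT-labelled T-like cells. Nr4a3 in T-like cells had 296 CPM in the eHCC and 73.7 CPM in the premalignant library labelled KO (2.01 [1.89 to 2.12]). With the WT label it had 121 CPM in the eHCC and 30.8 CPM in the premalignant library (1.97 [1.79 to 2.16]). Nr4a2 in T-like cells had ratios of 0.94 with the KO label and 0.55 with the WT label, and Nr4a1 of 0.58 and 0.70. The Egr genes of T-like cells had ratios of 0.01, 0.20 and -0.68 for Egr1, Egr2 and Egr3 with the KO label, and of 0.51, 0.66 and 0.33 with the WT label. Within the Cd8a, Gzmk and Tox cluster of WT-labelled cells, Nr4a2 had 637 CPM in eHCC and 665 CPM in premalignant cells (-0.06), and Nr4a3 148 against 52.0 CPM (1.51). Within the Tnfrsf4 and Foxp3 cluster Nr4a3 had ratios of 2.03 with the KO label and 2.36 with the WT label.

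Counts of members past 1.5-fold between stages followed the class. In KO-labelled T-like cells 2 members were higher and 1 lower, where 8.35% of genes were higher and 36.9% lower, and in WT-labelled ones 3 were higher and 0 lower, where 10.1% were higher and 16.3% lower. In KO-labelled NK-like cells 2 were higher and 2 lower (background 6.01% higher and 42.1% lower), and in WT-labelled ones 1 was higher, Nr4a3 at 1.37, and 2 lower, Egr2 at -1.18 and Egr3 at -2.04 (7.48% higher and 24.3% lower). WT-labelled B-like cells had 4 higher and 0 lower, with Nr4a3 at 53 UMIs in eHCC and 46 UMIs in premalignant cells (2.82 [2.22 to 3.42]), where 5.33% of genes were higher and 24.8% lower. Phagocyte markers summed to 2658 CPM in eHCC and 608 CPM in premalignant WT-labelled B-like cells and LSEC markers to 102 and 477 CPM, and their part in these values was not tested. KO-labelled dendritic-like cells had 1 higher, Nr4a3 at 1.74, and all 3 Egr genes lower, Egr1 at -1.90 (8.72% higher and 33.1% lower). Under the 11 alternative settings Egr3 was past 1.5-fold in 5 in KO-labelled T-like cells and in 8 in KO-labelled NK-like cells. With the WT label Nr4a1 of T-like cells was past it in 9, and Egr2 of T-like cells and Egr1 of B-like cells in 10 each.

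Phagocyte-like cells went the other way for Nr4a1. It stood at 454 CPM in eHCC and 914 CPM in premalignant cells with the KO label (-1.01 [-1.10 to -0.92]) and at 379 against 698 CPM with the WT label (-0.88 [-0.98 to -0.79]). With the KO label 2 members were higher and 1 lower, where 14.4% of genes were higher and 26.2% lower. With the WT label 4 were higher and 1 lower, where 20.7% were higher and 27.4% lower, among them Nr4a3 with 4131 UMIs in eHCC and 2 UMIs in premalignant cells (5.63 [3.78 to 8.68]). Egr2 with the WT label was past 1.5-fold in 9 of 10 alternative settings, with 0.11 as the lowest ratio, and Nr4a1 in 10 of 11. The Ace cluster with the most Nr4a1 RNA made up 21.7% of KO-labelled and 36.3% of WT-labelled premalignant phagocyte-like cells. With the KO label the Plac8 cluster held similar shares at both stages, 68.0% of premalignant and 69.0% of eHCC cells. With the WT label it held 53.2% of premalignant cells, and 48.0% of eHCC cells lay in the Fcrls and Tmem119 cluster. The part of the clusters in the Nr4a1 ratios was not tested.

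The genes whose levels were most like each member were read from Pearson's r over 27 class and library sums, among 11711 genes. The sums share libraries and depth, so r is a description only. Nr4a1 was most like Pim1 (0.90), Runx1 (0.85) and Csrnp1 (0.85), and Nr4a2 most like Emb (0.92), Atp8b4 (0.90) and Sema4a (0.87). Nr4a3 was most like Isy1 (0.89), Coq10b (0.88) and Ifrd1 (0.82). For Egr1 they were Btbd19, Plk3 and Gm28809 (0.79 to 0.78), for Egr2 Vasp, Mcl1 and Ggt5 (0.74 to 0.73) and for Egr3 Ddx25, Serpinb1a and Il5ra (0.78 to 0.74). Among the members themselves Nr4a2 and Nr4a3 had r of 0.88, Nr4a1 and Egr2 0.69, and Nr4a2 and Egr3 -0.06. With the handling genes Fos and Jun, Nr4a2 had r of -0.11 and -0.37, and Nr4a1 had 0.52 and 0.09.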

How the data were processed

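Single-cell 5′ gene expression was read in 4 libraries, 1 per Mef2d label and stage. The authors deposited raw UMI counts per gene and barcode, written by Cell Ranger 3.0.1 per the file headers. The submitters' processing notes also name bcl2fastq 2.20.0 and the builds GRCh38 and mm10, with no role given. The gene identifiers matched GRCm38.

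Kept cells had 500 or more UMIs, 300 or more genes and no more than 25% mitochondrial UMIs. Doublets scored by scrublet were removed at 0.8% per 1000 cells in every library, because its own thresholds removed 0.0112% to 7.12%. Cells were clustered with scanpy 1.11.5 and leidenalg 0.10.2 on 2000 variable genes, 40 principal components and 15 neighbours at resolution 1.0, with the members and the handling, heat shock and antigen receptor lists kept out. A class name needed at least 3 detected marker genes and a mean marker score (log2) of at least 1. It also needed no more markers of another class than of its own among the 10 leading genes. Clusters short of this were left unnamed, as were those with few UMIs per cell and no own marker among these 10. Clusters with 4 or more platelet or granulocyte progenitor genes there were left unnamed too, by a list chosen after the clusters were seen. The classes were rebuilt from markers and may differ from the study's own.

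UMIs were summed per class and library and given as CPM with exact Poisson intervals and as log2 ratios with exact conditional binomial intervals (scipy 1.17.1), at 95%. A gene was counted as past 1.5-fold with at least 20 UMIs in both libraries together. The ratio script was tested on simulated data. TMM factors came from edgeR 4.0.16. All 6 members were named in each class compared between labels, and between stages by their calls; genes of a list where past 1.5-fold, and 3 genes per member by likeness of log2(CPM + 5). Mef2d, and Crem in premalignant cells, were named outside this rule after their values were seen. A naive-cell marker was kept out of the definition of naive T-like cells, and an erythroid marker out of the marker sums, and neither is reported here. The members and lists were chosen with earlier results of these data known.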

Additional observations from a re-analysis of the deposited data

Results flagged for a closer look

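In premalignant liver 4 pairs of classes were past 1.5-fold in opposite directions for the same Egr gene, KO-labelled over WT-labelled. Only pairs with both intervals free of 0 were counted, so pairs of opposite sign with smaller ratios are left out. Each difference of log2 ratios was not tested, since there is 1 library per group. Egr1 differed by 1.85 between T-like cells (0.89 [0.73 to 1.05]) and LSEC-like cells (-0.96 [-1.03 to -0.89]). Egr1 differed by 3.49 between plasmacytoid dendritic-like cells (2.52 [1.37 to 3.91]) and LSEC-like cells, and the first of these ratios was -1.22 with doublets kept. Egr2 differed by 2.45 between phagocyte-like cells (1.36 [0.21 to 2.65]) and NK-like cells (-1.09 [-2.13 to -0.08]), on 25 and 9 UMIs in the first class and 16 and 21 UMIs in the second, with KO-labelled cells first. Egr3 differed by 3.37 between T-like cells (0.78 [0.35 to 1.23]) and NK-like cells (-2.59 [-3.45 to -1.80]).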

How the results depend on the processing

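No paired analysis was possible because each group has 1 library. Of 60 member ratios past 1.5-fold, 44 stayed past it in every setting that gave a value, and 643 of 649 values of these ratios under alternatives had the same direction. With each library clustered on its own, KO-labelled over WT-labelled premalignant T-like cells had ratios of -1.04 for Nr4a2 and -0.19 for the Nr4a sum, against 0.77 for that sum as reported, because a KO-labelled cluster lost the T name. In plasmacytoid dendritic-like cells Nr4a2 was at -0.023 with doublets kept and -0.12 thinned, and Egr1 and the Egr sum at -1.22 and -1.07 with doublets kept. The stage ratio of Egr3 in KO-labelled T-like cells was 0.064 thinned and 0.087 with cells weighted equally. The causes of these last reversals were not tested.

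Sums that moved beyond their counting interval were these. In premalignant LSEC-like cells the Nr4a sum was 0.76 with doublets kept and 0.60 with equal weight, and the Egr sum -0.78 with doublets kept, -0.84 thinned, -0.81 with equal weight and -0.86 with no list kept out. In premalignant T-like cells the Nr4a sum was 0.58 thinned, 0.67 with equal weight, 0.68 with unnamed clusters placed (an alternative chosen after seeing the data), 0.65 scaled to the median gene and 0.66 with TMM, and the Egr sum 0.62 with own clustering and 0.45 with unnamed clusters placed. In eHCC T-like cells the Nr4a sum was 1.41 with own clustering, 1.09 by the median gene and 1.12 with TMM, and the Egr sum 0.41 thinned, 0.35 with equal weight, 0.53 with own clustering, 0.35 by the median gene and 0.38 with TMM. Between stages in KO-labelled T-like cells the Nr4a sum was 1.13 thinned, 1.08 with equal weight, 2.03 with own clustering, 1.11 with unnamed clusters placed, 1.37 by the median gene and 1.45 with TMM, and the Egr sum 0.092 with equal weight, 0.51 with own clustering, -0.43 with unnamed clusters placed, 0.30 by the median gene and 0.38 with TMM. In WT-labelled T-like cells the Nr4a sum was 0.68 thinned, 0.72 with equal weight, 0.42 with own clustering, 0.91 by the median gene and 0.95 with TMM, and the Egr sum -0.25 with unnamed clusters placed and 0.66 with TMM. Members under 20 UMIs in a class could not be compared at this depth.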

Other observations

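Several small groups of cells outside the comparisons had high levels. Egr1 was at 821 CPM in a cluster of 71 cells and 2076 CPM in one of 18 cells that carried the name cholangiocyte-like, and at 989 CPM in a neutrophil-like cluster led by Il1r2 and Siglecf. Nr4a2 was at 39.5 CPM in 157 T-like cells led by Il17a and Trdc, and at 1210 CPM in 152 T-like cells led by Ccl3 and Tcrg-C2. Among phagocyte-like cells Nr4a1 was at 1535 CPM in a group of 230 cells led by Ace and Treml4, 685 CPM in 986 cells led by Chil3 and 204 CPM in 1397 cells led by Fcrls, where Egr1 was at 214 CPM.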
